A study of Mus musculus with 2 samples.

Results

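IL-12, IL-23 and their relatives are secreted by antigen-presenting cells and set the type of T cell and innate lymphocyte response. Here 8 genes of these systems were followed by name in single-cell RNA-seq of myeloid cells from mouse colorectal polyps. They were Il12b, Il12a, Il23a, Ebi3 and Il27, which encode subunits of the family, Il22ra2, which encodes a soluble receptor for IL-22, and the ligand and receptor pair Il15 and Il15ra. They were 8 of 32285 genes in the deposited matrices.

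IL-12 family cytokines are dimers. The p40 chain encoded by Il12b pairs with p35 (Il12a) to give IL-12, which drives interferon-gamma production, or with p19 (Il23a) to give IL-23, which sustains IL-17 and IL-22 producing lymphocytes in the gut. EBI3 pairs with p28 (Il27) to give IL-27. IL-22 acts on intestinal epithelium, and the IL-22 binding protein encoded by Il22ra2, known as a product of intestinal dendritic cells (DCs), neutralizes it. IL-15 supports NK cells and CD8 T cells and is largely presented to them by cells that carry IL-15 receptor alpha.

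CD11b+ and CD11c+ cells were sorted from the polyps of C57BL6/J mice of 26 weeks of age, 16 weeks into treatment with azoxymethane (AOM), a carcinogen, and with 3 cycles of dextran sulfate sodium (DSS) at 1%, which injures the colonic epithelium. WT mice were compared with KO mice, here named Clec7a-/-, which lack the beta-glucan receptor Dectin-1 in every cell of the body. Each genotype gave 1 library, from a pool of 5 WT or 4 Clec7a-/- mice, all of them given AOM and DSS, and the mice within a pool cannot be told apart. With 1 library per genotype no test between genotypes was possible. All intervals below are 95% intervals that cover counting error only, and they are too narrow where several unique molecular identifiers (UMIs) come from 1 cell.

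The WT library held 3467 barcodes with 15869215 UMIs and the Clec7a-/- library 3080 barcodes with 11808230 UMIs. Filtering to 200 to 4000 genes and to no more than 5% mitochondrial UMIs left 2696 WT cells (median 3412.5 UMIs) and 1999 Clec7a-/- cells (median 2671 UMIs). The mitochondrial limit was passed by 729 WT and 1057 Clec7a-/- barcodes. The libraries shared 17 barcodes, of which 10 were kept in each, and these held 4 and 13 UMIs of the 8 genes. Clec7a itself was not analysed here. The kept cells fell into 15 clusters, numbered 0 to 14. Besides myeloid cells they included a T cell-like cluster of 67 WT and 120 Clec7a-/- cells, and small clusters with markers of mast cells, of epithelium or of B and plasma cells, each of at most 21 cells per library, although the labels name only CD11b+ and CD11c+ cells.

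The cells of main interest lay in 3 clusters with DC markers. Cluster 10 (54 WT and 118 Clec7a-/- cells) carried all 8 markers of mature DCs that were listed, among them Fscn1, Ccr7 and Ccl22, together with 4 markers of type 1 conventional DCs (cDC1), Xcr1, Clec9a, Batf3 and Irf8. Cluster 3 (224 and 290 cells) carried 6 mature DC markers and 2 listed markers of type 2 conventional DCs (cDC2), Klrd1 and Flt3. Cluster 8 (82 and 158 cells) carried 5 cDC1 markers, the same 2 cDC2 markers and 2 mature DC markers. Flt3 was also carried by cluster 10. Together they made up a DC-like class of 360 WT and 566 Clec7a-/- cells, 13.4% (interval 12.1 to 14.7) and 28.3% (26.3 to 30.3) of the cells kept. The sort, its gate and the limit on mitochondrial UMIs bear on these shares, and their part in the difference was not tested. Median depth in the class was 4253 and 4095 UMIs per cell.

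The promoters of Il12b and Ebi3, the family genes that were highest in cluster 10, are shown with the letters GGGNNTT, an NF-kappaB type half-site, in capitals, because Rel-family factors are known regulators of p40. Each sequence is the 250 bases before the gene's start in RefSeq for GRCm38.p6, on the plus strand, at chr11:44399813-44400062 and chr17:55952373-55952622.
Il12b: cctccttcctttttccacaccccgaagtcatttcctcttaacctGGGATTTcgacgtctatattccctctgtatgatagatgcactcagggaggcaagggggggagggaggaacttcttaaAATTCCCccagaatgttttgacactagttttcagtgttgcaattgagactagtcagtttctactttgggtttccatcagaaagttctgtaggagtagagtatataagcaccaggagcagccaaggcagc
Ebi3: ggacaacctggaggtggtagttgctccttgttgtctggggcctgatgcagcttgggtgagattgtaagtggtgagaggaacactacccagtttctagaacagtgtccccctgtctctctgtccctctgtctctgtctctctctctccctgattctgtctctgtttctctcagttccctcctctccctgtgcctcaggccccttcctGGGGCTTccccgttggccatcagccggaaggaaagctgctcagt
The motif was searched on both strands. Il12b held it 206 bases before the start on the plus strand and 129 bases before it on the minus strand, and Ebi3 held it 44 bases before the start on the plus strand. The letters are common, since 13533 of 32851 promoters of this length (41.2%) hold them, so the matches are a description only. Of the 8 genes, Il12a and Il15ra have 2 promoter entries each. Il23a, Il27, Il22ra2 and Il15 have no entry, so their promoters were not searched for the motif.

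Il12b, the p40 gene (chr11:44400063-44414033, GENCODE annotation of mm10), was detected almost wholly in DC-like cells in both libraries. The DC-like class held 276 of 282 WT UMIs (97.9%) and 203 of 207 Clec7a-/- UMIs (98.1%). T cell-like cells, expected to be free of p40, had 0 positive cells of 67 and 0 of 120 at median depths of 2058 and 1546 UMIs, which allows up to 4.48% and 2.50% of cells with a UMI. Within the DC-like class the UMIs were unevenly spread. Cluster 10 had the highest level over both libraries, 315 CPM (the gene's UMIs per 1000000 UMIs summed over the cells), against 46.1 in cluster 3 and 27.4 in cluster 8. The interval of cluster 10 did not overlap that of cluster 3, nor that of cluster 3 that of cluster 8. Il12b was among the 10 leading genes of cluster 10 although the 8 genes had been left out of the features used for clustering.

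In cluster 10, Il12b was lower in the Clec7a-/- library. It was detected in 32 of 54 WT cells with 197 UMIs and in 42 of 118 Clec7a-/- cells with 149 UMIs, or 59.3% (45.0 to 72.4) and 35.6% (27.0 to 44.9) of the cells. Levels were 530.2 and 205 CPM, a log2 ratio of -1.37 (-1.69 to -1.06). Its positive cells held 6.16 and 3.55 UMIs on average, with maxima of 31 and 15. Medians per positive cell were 3 and 2.5 UMIs. WT cells of cluster 10 were deeper, with median UMIs of 7020 against 5438. After each cell was thinned to 1000 UMIs, which left out no cell of this cluster, 29.6% (18.0 to 43.6) and 15.3% (9.30 to 23.0) of cells were positive, and these intervals overlapped. Of the 4975 genes with at least 20 UMIs in cluster 10, 2.69% were 2-fold or more lower in Clec7a-/- cells and 4.12% were 2-fold or more higher. Il12b was the 1 of 4 testable members in the first set, and none was in the second.

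Summed levels went the same way in the other DC-like clusters, although the share of positive cells in cluster 8 did not. Cluster 3 held 50 WT and 37 Clec7a-/- Il12b UMIs in 17 and 12 cells, a log2 ratio of -0.69 (-1.35 to -0.05). Cluster 8 held 29 and 17 UMIs in 3 of 82 and 9 of 158 cells, a log2 ratio of -1.58 (-2.54 to -0.67). The 3 WT cells held 17, 11 and 1 UMIs and are too few to read a level from. Over the DC-like class the level was 149.9 CPM in the WT and 71.9 CPM in the Clec7a-/- library, with a log2 ratio of -1.06 (-1.33 to -0.79). The share of positive cells in the class was 14.4% (10.98 to 18.5) against 11.1% (8.66 to 14.02), intervals that overlapped. UMIs per positive cell had means of 5.31 and 3.22 but a median of 2 in both libraries, and the 3 highest cells of the whole library held 72 of 282 WT and 45 of 207 Clec7a-/- UMIs. Of 8450 genes with at least 20 UMIs in the class, 1.81% were 2-fold or more lower and 3.08% 2-fold or more higher in the Clec7a-/- library. Il12b and Il23a were in the first set and 0 of the 6 testable members in the second.

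Over all cells kept, Il12b did not show this difference. The level was 23.0 CPM with 56 positive cells in WT and 27.4 CPM with 67 positive cells in Clec7a-/-, a log2 ratio of 0.25 (-0.01 to 0.52). The Clec7a-/- library had the larger DC-like share. Had each of its clusters held the WT level of Il12b, its level would have been 65.9 CPM. The observed 27.4 CPM lay below this value and slightly above the WT level.

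**Figure D1:**
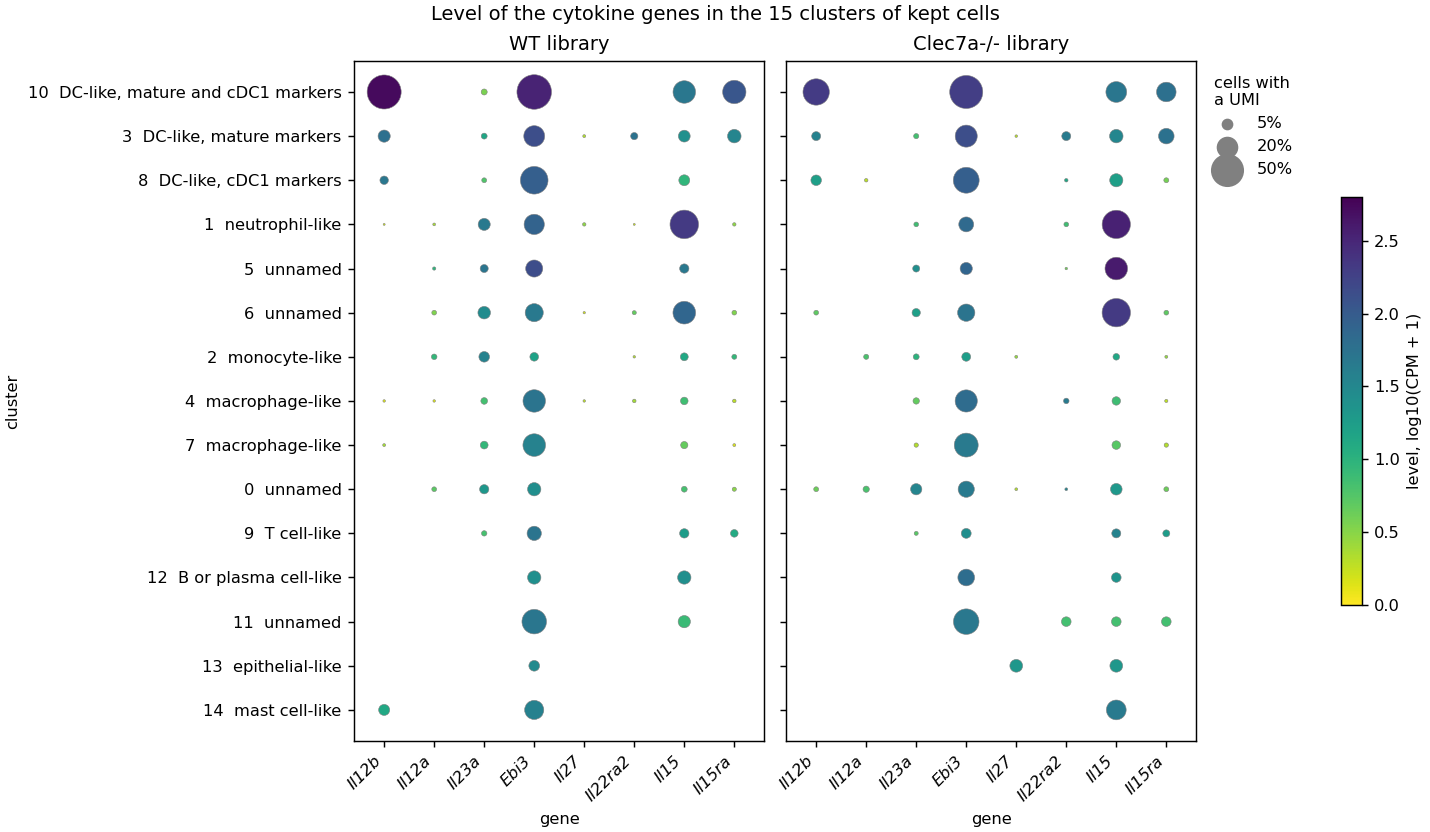
Level of each gene, as the log10 of CPM plus 1 (colour), and the percent of cells with at least 1 UMI (dot area) in the 15 clusters of the WT and Clec7a-/- libraries. Il12b, Ebi3 and Il15ra are highest in cluster 10, Il22ra2 stands in cluster 3 and, in Clec7a-/-, also in clusters 4 and 0, and Il15 is highest in cluster 1 in WT and in clusters 5 and 1 in Clec7a-/-.

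The partner chains of p40 were rarely detected, in Il12b-positive cells and in the other cells. Il12a, the p35 gene (chr3:68690644-68698547), had 22 UMIs in 17 WT cells and 9 UMIs in 9 Clec7a-/- cells, and the log2 ratio was -0.59 (-1.89 to 0.59). The DC-like class held 0 and 1 of these UMIs, and 0 UMIs in 360 WT cells allow up to 0.833% of cells with a UMI, which is a limit on detection and not on expression. Il12a UMIs were found in monocyte-like cluster 2 (7 and 3) and in unnamed cluster 0 (6 and 5), which was led by Ccl24, Slco4a1 and Pla1a. Of 56 WT and 67 Clec7a-/- Il12b-positive cells, 0 and 2 also had an Il12a UMI. Among the other cells 0.644% and 0.362% had one, and the intervals overlapped in both libraries. At these counts, no difference between libraries was detectable for Il12a.

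Il23a, the p19 gene (chr10:128296139-128298752), was detected mainly outside the DC-like class and was lower in the Clec7a-/- library. It had 232 UMIs in 125 WT cells and 60 UMIs in 42 Clec7a-/- cells, 18.9 and 7.94 CPM, a log2 ratio of -1.25 (-1.69 to -0.84). At WT cluster levels, the Clec7a-/- library would have been at 13.7 CPM. Only 6.47% and 10.0% of the UMIs lay in the DC-like class, where 15 and 6 were counted. Over both libraries together, the highest level was in neutrophil-like cluster 1, 42.3 CPM (33.0 to 53.3), with overlapping intervals in clusters 5, 6 and 2. Cluster 0, at 24.7 CPM (18.7 to 31.9), did not overlap cluster 1. In Clec7a-/- alone, cluster 1 was at 6.22 CPM, below clusters 0 (32.3), 5 (25.2), 6 (15.8) and 2 (9.03). Cluster 1, led by Ngp, Retnlg and S100a8, held 70 WT UMIs and 1 Clec7a-/- UMI, a log2 ratio of -2.89 (-8.21 to -0.36). Monocyte-like cluster 2 held 32 and 5 UMIs, a log2 ratio of -1.97 (-3.69 to -0.60). Cluster 0 went the other way, with 28 and 30 UMIs, or 19.7 and 32.3 CPM, a log2 ratio of 0.72 (-0.08 to 1.51) whose interval spans 0. Cluster 0 thus held 12.1% of the WT and 50% of the Clec7a-/- UMIs of the gene. Of Il12b-positive cells, 0 of 56 WT and 2 of 67 Clec7a-/- cells also had an Il23a UMI. Among the other cells 4.73% and 2.07% had one, and the intervals overlapped in both libraries.

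Ebi3, the IL-27 beta chain gene (chr17:55952640-55957022), was the most widely detected of the subunit genes. UMIs were counted in 501 WT cells (791 UMIs) and 376 Clec7a-/- cells (605 UMIs), 18.6% and 18.8% of cells. The DC-like class held 37.7% of them in WT and 62.5% in Clec7a-/-. Macrophage-like cells held 188 and 111 UMIs at 44.2 and 55.6 CPM, and neutrophil-like cells 126 and 11 UMIs at 82.9 and 68.4 CPM. T cell-like cells were positive in 10.4% and 5.00% of cells, at 51.4 and 25.7 CPM, in WT above the macrophage-like level. Their median depths were 2058 and 1546 UMIs, against 7797 and 6133 in macrophage-like cells. Shares at or below the T cell-like ones elsewhere are not read as expression. At such unlike depths, shares above them do not by themselves show expression. Whether T cell-like cells, with Foxp3 among their 10 leading genes, express Ebi3 themselves was not tested. Their share is therefore not a measured background. Cluster 10 stood above T cell-like cells in share and level, with 61.1% and 55.9% of cells positive.

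In cluster 10, the Ebi3 level per UMI was lower in Clec7a-/- cells, while its share of positive cells did not differ beyond its interval. The cluster held 125 WT UMIs in 33 cells and 140 Clec7a-/- UMIs in 66 cells, at 336 and 193 CPM, a log2 ratio of -0.80 (-1.16 to -0.44). With cells thinned to 1000 UMIs, 16.7% (7.92 to 29.3) of WT and 18.6% (12.1 to 26.9) of Clec7a-/- cells were positive, so the thinned shares did not show the lower level. Clusters 3 and 8 showed no such ratio, at 0.01 (-0.35 to 0.38) and -0.02 (-0.51 to 0.48). Over the DC-like class the log2 ratio was -0.27 (-0.50 to -0.05), and over all cells kept, with more DC-like cells in Clec7a-/-, 0.31 (0.16 to 0.47). Among DC-like cells, Ebi3 was detected in 29 of 52 WT and 37 of 63 Clec7a-/- Il12b-positive cells, or 55.8% and 58.7%, against 27.9% and 30.8% of Il12b-negative cells, and the intervals did not overlap in either library. Within cluster 10, which held most Il12b-positive cells, the shares were 59.4% against 63.6% in WT and 66.7% against 50% in Clec7a-/-, with overlapping intervals, so the association over the class was not seen within that cluster. Il12b-positive DC-like cells were also deeper, with a median of 5658 UMIs against 3971, and the part of depth in this co-detection was not tested.

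Il27, the p28 gene (chr7:126589010-126594941), had 7 UMIs in 6 WT cells and 4 UMIs in 4 Clec7a-/- cells. They were scattered over clusters, with at most 3 UMIs in any cluster of a library. Only 1 cell, in WT, had both Ebi3 and Il27 UMIs. The depth did not allow a comparison of Il27.

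Over both libraries together, Il12b and Il22ra2 had their highest levels in different DC-like clusters, although cluster 3 held both, with 87 Il12b UMIs in 29 cells. None of the 123 Il12b-positive and 33 Il22ra2-positive cells held UMIs of both. In DC-like cells Il22ra2 was detected in 0 of 115 Il12b-positive cells, an interval of up to 3.16%, against 2.34% (1.42 to 3.63) of the others, so these counts are too few to show that the genes avoid each other in single cells. Cluster 10 had no Il22ra2 UMI in 54 and 118 cells, which allows levels of up to 8.07 and 4.13 CPM. In cluster 3, Il22ra2 had its highest level over both libraries, 48.3 CPM, which did not overlap the next, 16.2 CPM in macrophage-like cluster 4. The libraries differed in this. In WT, cluster 3 was at 54.7 CPM and cluster 4 at 1.45 CPM. In Clec7a-/-, cluster 4 was at 44.2 CPM (48 UMIs), slightly above cluster 3 at 42.8 CPM (44 UMIs). Of 7548 genes with at least 20 UMIs in clusters 10 and 3 together, 6.93% were 2-fold or more higher in cluster 10, among them Il12b of 5 testable members. A further 14% were 2-fold or more lower, among them Il22ra2.

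**Figure D2:**
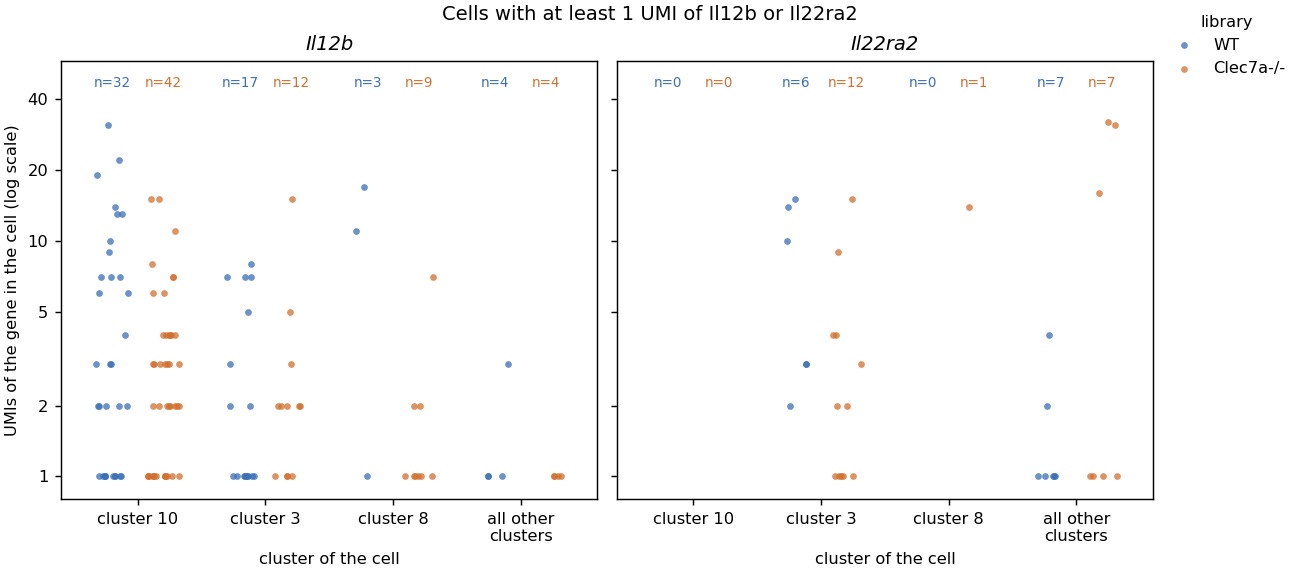
UMIs of Il12b (left) and Il22ra2 (right) in each cell with at least 1 UMI, on a log scale, by cluster and library, with the number of such cells (n) above each column. Il12b cells lie mainly in cluster 10 and reach 31 UMIs in WT. DC-like Il22ra2 cells lie mainly in cluster 3, and in Clec7a-/- 3 cells of other clusters hold 16, 31 and 32 UMIs.

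The marker genes of these cells were then read. Of 115 Il12b-positive DC-like cells, 68.7% had UMIs of Fscn1, an actin-bundling protein of mature DCs, against 27.9% of the 811 negative ones. Of the cDC1 markers, Xcr1, a chemokine receptor, was detected in 47.0% against 22.8% and Irf8 in 78.3% against 46.2%, whereas Wdfy4 was detected in 26.1% against 32.9% and Itgae in 22.6% against 27.7%. Aldh1a2, a retinoic acid synthesis enzyme, was detected in 32.2% against 10.6%. Il12b-positive cells were deeper, as given above. The genes with the highest ratio in the Il12b-positive cells were Npr1 and Plppr4, at log2 ratios of 3.43 and 3.12. Of the 19 Il22ra2-positive DC-like cells, all 19 (82.4 to 100%) had Ccr7, against 88.8% (86.5 to 90.7) of the 907 negative ones, and these intervals overlapped. The other listed mature DC markers were all detected in a lower share of the positive cells. Only for Cacnb3 did the intervals not overlap, at 15.8% (3.38 to 39.6) against 46.2% (42.9 to 49.5). Klrd1 was detected in 7 of the 19, 36.8% (16.3 to 61.6) against 18.6% (16.1 to 21.3), and Fscn1 in 3, 15.8% (3.38 to 39.6) against 33.3% (30.2 to 36.5), and both pairs of intervals overlapped. Xcr1 was detected in 0, an interval of up to 17.6%, against 26.4% (23.5 to 29.3). The other cDC1 markers read above did not all go this way. Irf8 was detected in 36.8% against 50.5%, but Wdfy4 in 42.1% against 31.9% and Itgae in 36.8% against 26.9%. Flt3, listed with the cDC2 markers, was detected in 42.1% against 48.3%. The intervals of these 4 markers overlapped between positive and negative cells. Their leading genes were Lyz2, Ctsc, S100a6, Plac8 and Mreg, with log2 ratios of 2.49 to 1.66 over the other DC-like cells. In a clustering at a resolution higher by 0.4, cluster 3 separated into a cluster of 282 cells and a cluster of 235 cells. The first carried 3 cDC2 markers, Clec10a, Mgl2 and Klrd1, and 2 mature DC markers, Ccr7 and Il4i1. The second carried all 8 mature DC markers and also 3 cDC2 markers, Klrd1, Irf4 and Flt3. The first held 47 WT and 33 Clec7a-/- Il22ra2 UMIs and 3 and 3 Il12b UMIs. The second held 0 and 11 Il22ra2 UMIs and 47 and 34 Il12b UMIs.

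Il22ra2 (chr10:19621998-19634681) was held by few cells. WT had 58 UMIs in 13 cells and Clec7a-/- had 141 UMIs in 20 cells, 0.482% (0.257 to 0.823) and 1.00% (0.612 to 1.54) of cells. In WT, 6 cells of cluster 3 held 15, 14, 10, 3, 3 and 2 UMIs, 47 in all, and 7 cells outside the DC-like class held 4, 2 and 5 times 1 UMI. In Clec7a-/-, 12 cells of cluster 3 held 44 UMIs and 1 cell of cluster 8 held 14. A further 3 Clec7a-/- cells outside the DC-like class held 32 (cluster 0), 31 and 16 UMIs (both cluster 4), and 4 others held 1 each. The 3 highest cells held 67.2% of the WT UMIs and 56.0% of the Clec7a-/- UMIs.

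Over all cells kept, Il22ra2 was at 4.72 CPM in WT and 18.7 CPM in Clec7a-/-, a log2 ratio of 1.98 (1.53 to 2.45). In the DC-like class it was at 25.5 and 20.5 CPM, a log2 ratio of -0.31 (-0.89 to 0.27), with 6 of 360 and 13 of 566 cells positive. At WT cluster levels the Clec7a-/- library, with its larger DC-like share, would have been at 7.87 CPM over all cells. Outside the DC-like class 11 WT and 83 Clec7a-/- UMIs were counted, 79 of the latter in the 3 cells named above. Those 3 barcodes were deep, with 7980 to 12157 UMIs each. They carried 5 to 6 of the listed macrophage markers and 1 to 4 mature DC markers, and whether each held 1 cell or more was not tested. Without them the log2 ratio over all cells was 0.80 (0.26 to 1.34), and 93.5% in place of 41.1% of the Clec7a-/- UMIs lay in the DC-like class, against 81.0% in WT. The 3 barcodes were left out in this way only after their values were seen. They were picked as Clec7a-/- barcodes outside the DC-like class with over 10 UMIs of the gene. By this choice the ratio could only fall and the Clec7a-/- DC-like share only rise. WT had 0 such barcodes and was left unchanged, so the changed values are a description only.

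IL-15 and its receptor alpha chain were detected mainly in different clusters. Il15 (chr8:82331632-82403222) had 548 UMIs in 377 WT cells and 367 UMIs in 262 Clec7a-/- cells, of which the DC-like class held 8.03% and 23.4%. The 3 clusters with at least 7 neutrophil markers, clusters 1, 5 and 6, held 83.8% and 63.5%. Only cluster 1 of these was named neutrophil-like, since cluster 5 had no such marker among its leading genes and cluster 6 also carried 3 monocyte markers. Macrophage-like cells were low, at 4.93 and 5.51 CPM. T cell-like cells were positive in 4.48% and 4.17%, a share that cluster 5 in WT, at 4.42%, did not exceed.

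Within these clusters the Il15 level was higher in Clec7a-/-. In cluster 1 it was 213 CPM (323 UMIs in 207 cells) in WT and 348 CPM (56 UMIs in 36 cells) in Clec7a-/-, a log2 ratio of 0.71 (0.27 to 1.12). Cluster 6 had 76.7 and 209 CPM, a log2 ratio of 1.45 (0.96 to 1.92). The widest gap was in cluster 5, with 11 UMIs in 8 of 181 WT cells and 124 UMIs in 82 of 315 Clec7a-/- cells, and its log2 ratio was 3.08 (2.19 to 4.12). All 3 clusters therefore moved the same way, although the 3 had been brought together only after their values were seen. Jointly the level was 135.5 CPM (459 UMIs) and 319 CPM (233 UMIs), a log2 ratio of 1.23 (1.00 to 1.46). Of 7221 genes with at least 20 UMIs there, 4.64% were 2-fold or more higher, with Il15 among them, and 6.33% 2-fold or more lower, with Il23a among them, of 3 testable members. Their Clec7a-/- cells were shallower, with a median of 1207 UMIs against 2882, and the share of positive cells was 29.9% in WT and 31.4% in Clec7a-/-. With cells thinned to 1000 UMIs, 16.4% (13.2 to 19.9) and 28.2% (19.0 to 39.0) of cluster 1 cells, 9.22% (6.39 to 12.8) and 16.5% (9.31 to 26.1) of cluster 6 cells and 2.75% (0.571 to 7.83) and 33.3% (25.4 to 42.1) of cluster 5 cells were positive. Only the intervals of cluster 5 did not overlap, and 72 WT and 183 Clec7a-/- cells of that cluster were too shallow to be thinned.

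These clusters made up 38.0% of WT and 24.4% of Clec7a-/- cells, and 27.6% and 9.67% of the UMIs. Over all cells kept Il15 was at 44.6 and 48.6 CPM, a log2 ratio of 0.12 (-0.07 to 0.32). At WT cluster levels, the Clec7a-/- library would have been at 21.9 CPM. Il15 and Il12b were thus alike in showing little difference over all cells while differing within the clusters that held them, in opposite directions.

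Il15ra (chr2:11705290-11734317) lay in the mature DC clusters. It had 91 UMIs in 55 WT cells and 115 UMIs in 72 Clec7a-/- cells, 75.8% and 89.6% of them in the DC-like class. Its level over both libraries was 76.5 CPM in cluster 10, 45.1 CPM in cluster 3 and 14.7 CPM in T cell-like cluster 9, with no overlap between these neighbours. Neutrophil-like cluster 1 had 3 and 0 UMIs. Over all cells kept it was at 7.41 and 15.2 CPM, a log2 ratio of 1.04 (0.63 to 1.45), close to the 16.5 CPM that WT cluster levels would give at Clec7a-/- cluster shares. In the DC-like class it was at 37.5 and 36.5 CPM, a log2 ratio of -0.04 (-0.49 to 0.42). Its summed levels nevertheless moved in opposite directions in clusters 10 and 3. Cluster 10 went from 110.3 to 59.2 CPM, a log2 ratio of -0.90 (-1.55 to -0.25), and cluster 3 from 32.6 to 55.5 CPM, a log2 ratio of 0.77 (0.09 to 1.47). In cluster 10, 15 of 54 WT and 23 of 118 Clec7a-/- cells were positive. These shares, 27.8% (16.5 to 41.6) and 19.5% (12.8 to 27.8), had overlapping intervals. In cluster 3, 21 of 224 and 36 of 290 cells were positive. At the resolution higher by 0.4, the cluster of 235 cells described above held 28 and 53 Il15ra UMIs. There 21 of 94 WT and 32 of 141 Clec7a-/- cells were positive, which are similar shares. Over all cells kept, 1 WT cell held 12 of the 91 WT UMIs.

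Cells with UMIs of both Il15 and Il15ra numbered 17 in WT and 19 in Clec7a-/-, 14 and 16 of them DC-like. In cluster 10, 10 of 14 WT and 8 of 26 Clec7a-/- Il15-positive cells also had Il15ra, 71.4% (41.9 to 91.6) and 30.8% (14.3 to 51.8). Of the Il15-negative cells of cluster 10, 12.5% (4.19 to 26.8) and 16.3% (9.42 to 25.5) had Il15ra, and the intervals overlapped in Clec7a-/- only. Of the neutrophil-like Il15-positive cells, 0 of 207 and 0 of 36 had Il15ra. Only 1.03% (0.214 to 2.99) of the WT Il15-negative ones did, so these counts are too few to compare. The pair was thus seen together in single DC-like cells. At this depth it was not detected together in neutrophil-like cells, where Il15ra itself was rarely detected.

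**Figure D3:**
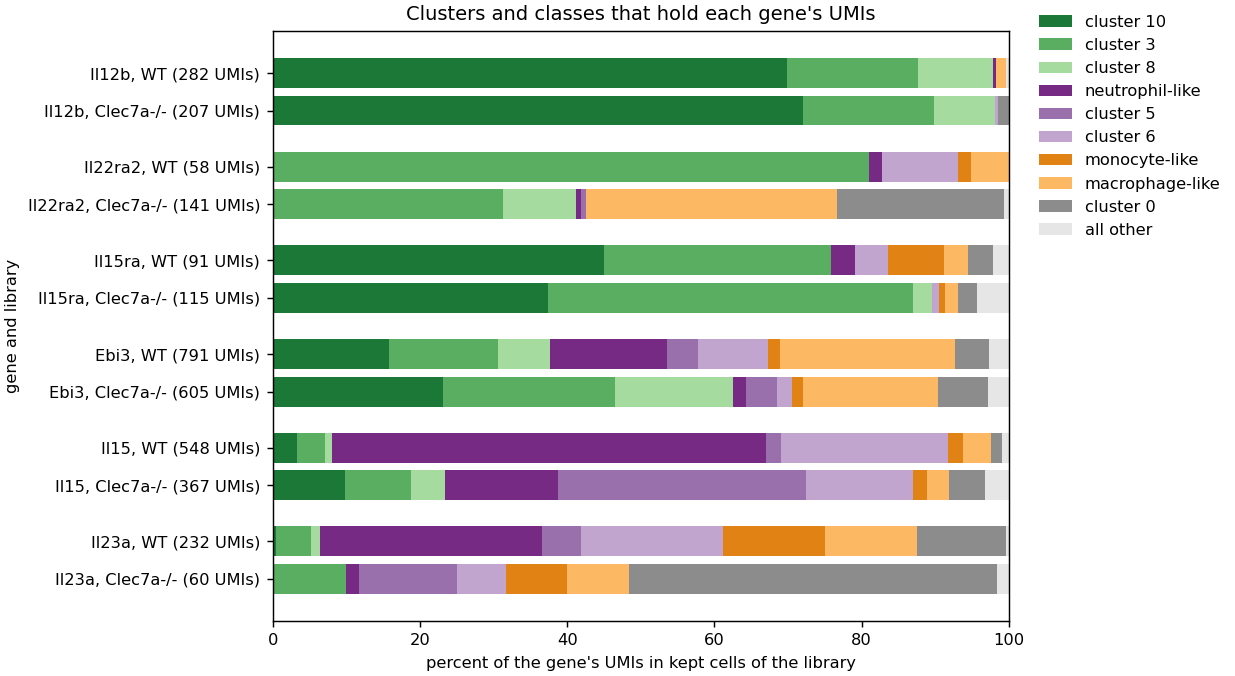
Percent of each gene's UMIs that lay in each cluster or class, by library, with the gene's number of UMIs in kept cells beside each bar. DC-like clusters (green) held 97.9% and 98.1% of Il12b and most of Il15ra, whereas clusters with neutrophil markers (purple) held most of Il15 in both libraries.

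Over the whole comparison of Clec7a-/- with WT in all cells kept, 5.47% of 11461 genes with at least 20 UMIs were 2-fold or more higher and 2.41% 2-fold or more lower. Of 7 testable members, Il22ra2 and Il15ra were in the first set and Il23a in the second, and the median log2 ratio was 0.26 for the members and 0.15 for all genes. In the DC-like class the medians were -0.30 for 6 members and 0.03 for all genes. Against the other cells, 13.8% of genes were 2-fold or more higher in the DC-like class, with Il12b, Ebi3, Il22ra2 and Il15ra among them, and 22.7% were 2-fold or more lower, with Il12a and Il23a among them.

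**Figure D4:**
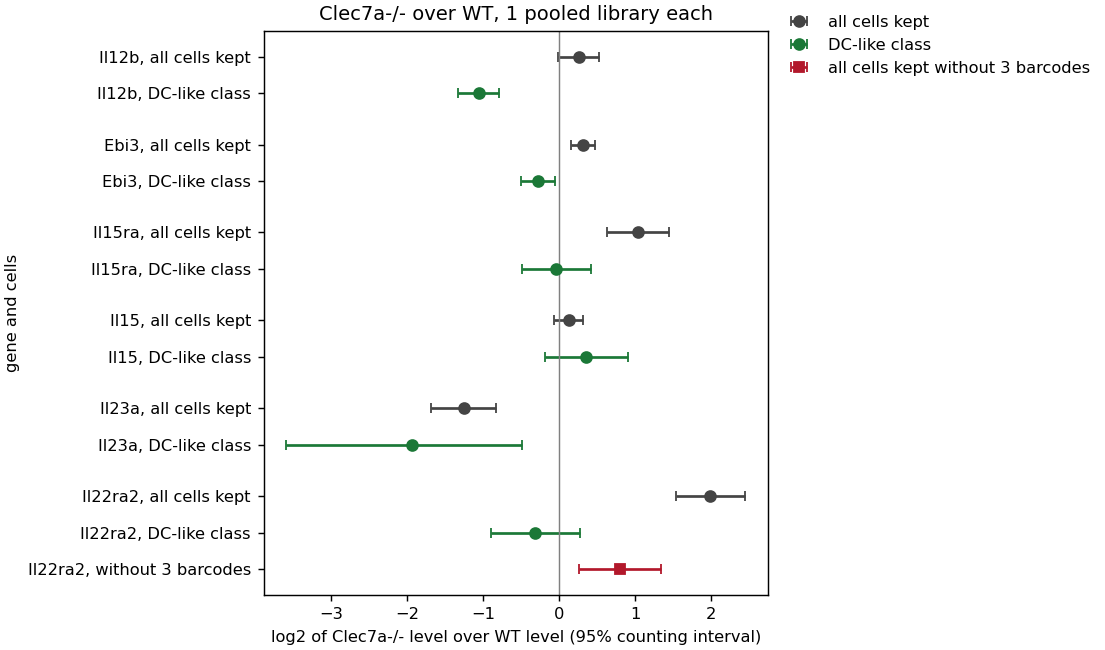
Log2 ratio of the Clec7a-/- level over the WT level for 6 genes, over all cells kept and in the DC-like class, with 95% counting intervals and 1 pooled library per genotype. Il12b, Ebi3, Il15ra and Il22ra2 lie lower in the DC-like class than over all cells, whereas Il15 does not. Il23a also lies lower there, but on 15 and 6 UMIs, and its interval contains the one over all cells. Over all cells, Il22ra2 falls from 1.98 to 0.80 without 3 Clec7a-/- barcodes, which were picked for their high Il22ra2, so that a fall was fixed in advance.

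The receptors and regulators of the pathway were read from a list of 28 genes. In the DC-like class, 0 of 17 with at least 20 UMIs were 2-fold or more higher in Clec7a-/- and 2 were lower, Ptgs2 and Aldh1a3. The shares of all genes in the class were 3.08% and 1.81%. Ptgs2, the inducible cyclooxygenase, had 317 and 191 UMIs, a log2 ratio of -1.35 (-1.62 to -1.08), and Aldh1a3, a retinaldehyde dehydrogenase, 22 and 9 UMIs, a log2 ratio of -1.91 (-3.21 to -0.73). Of the known regulators of p40, Irf8 was at 0.18 (0.03 to 0.32), Relb at -0.08 (-0.23 to 0.08) and Rel, which encodes c-Rel, at -0.19 (-0.30 to -0.07) on the log2 scale in the class. In cluster 10 Rel was at -0.45 (-0.69 to -0.21), Irf8 at -0.14 (-0.36 to 0.08) and Relb at 0.28 (-0.01 to 0.58). In cluster 10 against cluster 3, Batf3, Irf8, Aldh1a2 and Aldh1a3 were 2-fold or more higher and Il2rb, Irf4, Rdh10 and Ptgs2 lower, of 17 testable genes. Among all genes 6.93% were higher and 14% lower. Over all cells kept, 3 of 21 were 2-fold or more higher, Il27ra, Il2rb and Batf3, and Ptgs2 alone was lower, beside 5.47% and 2.41% of all genes. Il27ra had only 12 and 16 UMIs, with an interval that spans 0 (-0.06 to 2.33). In T cell-like cells Il27ra was at -0.001 (-1.37 to 1.43) and Il2rb at -0.04 (-0.24 to 0.16). Batf3 was at 0.19 (-0.57 to 0.98) in the DC-like class. Il2rb was higher in that class, at 0.94 (0.09 to 1.85), and in macrophage-like cells, at 2.09 (0.57 to 3.79), on fewer UMIs.

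The receptors for these cytokines were thinly read. T cell-like cells held 8 of 11 WT and 7 of 9 Clec7a-/- UMIs of Il12rb1, the shared IL-12 and IL-23 receptor chain, and 3 of 5 and 8 of 8 of Il23r. Il27ra had 9 of 12 and 12 of 16 UMIs there. Il12rb2, the second IL-12 receptor chain, instead lay in the DC-like class, with 49 of 70 and 70 of 80 UMIs. Il2rb, the IL-15 signalling chain, had 356 and 462 UMIs in T cell-like cells, at 2033 and 1978 CPM. The output genes of these receptors were seen in few cells. Il17a had 83 UMIs in 8 and 84 UMIs in 13 T cell-like cells, and Ifng 8 UMIs in 1 cell and 1 UMI in 1 cell. Il22 had 4 UMIs in 1 WT cell of the DC-like class and 0 in Clec7a-/-, which allows up to 0.397 CPM. The epithelial IL-22 receptor chain Il22ra1 had 0 UMIs in both libraries.

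Genes whose level over the 15 clusters most resembled that of a member were ranked by Pearson's r of log2 CPM, as a description over clusters that share libraries. For Il12b they were Egf and Tnfaip8, with r of 0.946 and 0.941. Il23a was nearest to Bst1 (0.957), Il15 to Cpne2 (0.953) and Il15ra to Rab21 (0.900). Ebi3 was nearest to Tapbp (0.891). Il22ra2 had no close match, the nearest being the cDC2 lectin Clec10a at 0.729.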

How the data were processed

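Barcode, feature and matrix files of 1 WT and 1 Clec7a-/- library were analysed. The matrices were deposited by the authors as raw UMI counts per gene and barcode, not normalized. Libraries were made with a SeekOne MM 3' microwell kit. The submitters' processing notes name Cell Ranger 2.1.1 and mm10, and a label names another platform. The annotation used for counting is not given in the sources used here. Coordinates are from GENCODE for GRCm38.

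The filters were those of the study's methods: 200 to 4000 genes and at most 5% mitochondrial UMIs. Scrublet called 0 and 2 barcodes, under 0.5%, and so was not taken to have worked. No doublets were removed. Counts were log-normalized to 10000 and clustered with Seurat 5.3.0 in R 4.3.3 on 20 components of 1981 variable features. These remained after 19 genes were left out, from a list of the members, the pathway genes and sex-linked genes such as Xist. Resolution gave 15 clusters. A cluster was named from the marker list with most genes 2-fold higher in it, with at least 3 markers and at least 1 among its 10 leading genes. It was left unnamed where 3 markers of another lineage were present. This rule was set after the clusters were seen.

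Levels are UMIs per 1000000 (CPM), from UMIs summed over cells. Intervals are exact Poisson, Clopper-Pearson or conditional binomial at 95%, and a count of 0 was given a limit of 3 counts. These were computed in Python 3.11.15 with scipy 1.17.1. Ratios of all genes used 0.5 added UMIs and a minimum of 20. edgeR 4.0.16 was used only for TMM scale factors on the summed counts. The step was tested on simulated data.

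All 8 members were reported. Other genes named were the 5 with highest ratio in positive cells, the 5 most similar over clusters, and those of the pathway list. Members and lists were chosen with earlier results of these data known. Alternatives changed filters, doublet removal, clustering, integration, scaling and naming.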

Additional observations from a re-analysis of the deposited data

Results flagged for a closer look

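The barcodes that the filters left out, 771 in WT and 1081 in Clec7a-/-, entered no comparison and also held these transcripts. In the Clec7a-/- barcodes left out, Ebi3 was at 79.1 CPM against 56.3 in those of WT, Il22ra2 at 21.2 against 5.30, Il15 at 22.1 against 11.4 and Il15ra at 15.8 against 4.18. Each of these was above the WT level in barcodes left out, and the difference was not tested. The barcodes left out mix those over 5% mitochondrial UMIs with those over 4000 genes. In the former alone, Ebi3 was at 63.0 CPM (53.8 to 73.3) in WT and 79.2 CPM (70.5 to 88.7) in Clec7a-/-, intervals that overlapped. Those of Il22ra2, Il15 and Il15ra did not overlap there. Il22ra2 UMIs were again held by few of these barcodes, 90 UMIs in 11 Clec7a-/- barcodes, of which 3 held 74, and 19 UMIs in 5 WT barcodes. Il12b had 29.9% of its WT UMIs and 45.7% of its Clec7a-/- UMIs in barcodes left out.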

How the results depend on the processing

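No paired analysis was possible because each genotype had 1 library, and no replicate could be left out. Under the alternatives chosen at the start, 421 recomputed values stayed within their counting interval, 68 moved further and 1 reversed. The cause of each change was not tested. The Il12b log2 ratio in the DC-like class stayed between -1.10 and -0.95 over 16 such alternatives and the Il22ra2 log2 ratio over all cells between 1.82 and 2.05. In the 12 other clusterings, as in that reported, the clusters with most WT Il12b and most WT Il22ra2 UMIs were not the same cluster. In what follows, a top cluster is the one with most WT UMIs of a gene, and shares are of the gene's UMIs.

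With a limit of 10% mitochondrial UMIs, the DC-like class was 15.7% of WT and 33.1% of Clec7a-/- cells and held 41.3% of WT Ebi3, and the Il12b top cluster held 53.9% in WT. With no such limit only 2 clusters were named DC-like, and the Il22ra2 top cluster was unnamed. The class was then 10.8% and 25.8% of cells and held 94.8% of Clec7a-/- Il12b, 2.39% of WT Il23a, 54.7% of Clec7a-/- Ebi3 and 1.30% and 5.96% of Il22ra2, whose log2 ratio in the class was 2.77, and the Il12b top cluster held 81.9% in Clec7a-/-. With other limits on detected genes at both ends, the class held 94.2% of Clec7a-/- Il12b and 54.6% of Ebi3, and the Il12b top cluster 81.2%. With no upper limit on genes these were 94.2%, 54.0% and 49.3%, and 54.6% for the Il12b top cluster in WT.

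Without the Scrublet calls the Il12b top cluster held 61.7% and 78.7% and the Il22ra2 top cluster 23.4% in Clec7a-/-. Without the 5% highest scores these were 62.2% in WT and 22.9% in Clec7a-/-, and 3.40% of WT Il23a was in the class. A lower resolution gave 80.1% and 80.2% in the Il12b top cluster, and a higher one 23.4% in the Il22ra2 top cluster of Clec7a-/-. With 10 components the Il22ra2 log2 ratio in the class was 0.29, the class held 63.1% in Clec7a-/-, the Il22ra2 top cluster 45.4% in Clec7a-/- and the Il12b top cluster 46.1% in WT. With all variable features the Il12b top cluster held 86.5% and 88.4% and the Il22ra2 top cluster 23.4% in Clec7a-/-, and after reciprocal PCA integration 22.7%. With classes from each cell's own markers, the class held 26.7% of Clec7a-/- Il23a and 91.4% and 63.1% of Il22ra2.

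TMM scaling gave Ebi3 a log2 ratio of 0.15 over all cells. Means over cells of CPM gave, over all cells, -0.79 for Il23a, 0.16 for Ebi3 and 0.73 for Il15, and in the class 0.89 for Il23a, which reversed, 0.30 for Il22ra2 and 0.73 for Il15ra. The other alternatives were chosen after seeing the data. Without the 3 barcodes high in Il22ra2, its log2 ratio over all cells was 0.80, and 93.5% in the class and 71.0% in the top cluster of Clec7a-/-. Without the highest barcode of each library, these shares were 53.2% and 40.4%. Shares of positive cells in place of UMIs gave log2 ratios over all cells of 0.69 for Il12b, 0.017 for Ebi3, 1.05 for Il22ra2 and -0.093 for Il15, and in the class -0.38 for Il12b, 0.46 for Il22ra2 and 0.087 for Ebi3, which reversed. Il12a and Il27 had few UMIs and Il22ra2 few cells, which limits what can be read of them.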
